A study of Mus musculus with 8 samples.

Results

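The guanylate-binding proteins (GBPs) and immunity-related GTPases (IRGs) are described here through 7 mouse genes, Gbp2, Gbp3, Gbp7, Gbp9, Irgm1, Irgm2 and Igtp, of the 32249 genes counted. They were chosen by name because their RNA was higher in macrophages given CYR61, so their difference between the groups is given as a description with no test. CYR61 is a secreted matricellular protein, encoded by Ccn1, that binds integrins. The cells were marrow of C57Bl/6J mice (10 weeks, male by their labels) grown over 3 days in M-CSF, which turns marrow cells into macrophages, followed by 24 h without CYR61 (control) or with 4 µg/mL of it. Each group had 4 libraries made with HIVE, a microwell platform that tags the RNA of single cells with a cell barcode and a molecule barcode (UMI). Whether replicates came from separate animals or cultures is not in the labels, so every p-value measures the spread between libraries, which may be technical.

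GBPs are large GTPases of the dynamin superfamily that interferons induce. They assemble on the vacuoles of intracellular parasites and on bacteria in the cytosol, and expose them to further attack, including the inflammasome. IRGs are smaller interferon-inducible GTPases. The effector IRGs load onto parasite vacuoles, while the regulatory Irgm proteins (Irgm1, Irgm2 and Igtp, also called Irgm3) sit on host membranes and hold the effectors inactive there. Type I interferons act on such genes through a factor with STAT2 and IRF9 at a DNA element called ISRE, and interferon gamma acts mainly at another element called GAS.

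Barcodes with 300 or more genes and no more than 20% of UMIs from mitochondrial genes were kept as cells, 12848 of 40000. The tables carry 2 date stamps, earlier for replicates 1 and 2 and later for replicates 3 and 4 of each group. Of the kept cells, 6443 (50.15%) had their barcode in a further table of their own date, and 91 in a table of the other one. Each barcode was therefore counted once per date, in the table holding the largest part of its UMIs, its home library. This left 9196 home-library cells (2057 control and 7139 CYR61). Unless stated otherwise, values are CPM, the UMIs of a gene per 1000000 UMIs of a library, in home-library cells. These held 842528 to 3436577 UMIs per control library and 1149043 to 13933610 per CYR61 library, with medians of 921 to 1144 and 789 to 1595 UMIs per cell. Against the label male, Xist reached 1152 to 1249 CPM in control replicates 2 and 3 and CYR61 replicates 1 and 2. The other libraries had 323 to 399 CPM of Y-linked RNA and at most 1.16 CPM of Xist. All 13 macrophage or monocyte markers were detected, at 10260 to 14410 summed CPM in control and 13030 to 17170 in CYR61 libraries. The 8 neutrophil markers summed to 399 to 1206 and 275 to 2638 CPM, and the 5 megakaryocyte markers to 372 to 875 and 586 to 1359 CPM. Markers of T or NK cells (8 of 10 detected, Gzma and Ifng at 0), dendritic cells (5 of 6, Ccr7 at 0), erythroid cells (2 of 5), mast cells (5 of 5) and stromal cells (6 of 7, Cxcl12 at 0) summed to under 10 CPM in every library. B or plasma cell markers (5 of 6 detected) were higher in every control library, at 8.97 to 36.8 CPM, than in any CYR61 library, at 2.61 to 6.57 CPM. The part of B lineage RNA in the results below was not tested.

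The promoters are shown first because they are what the members can share beyond their names. RefSeq sequences of 250 bases before to 50 bases after the gene start (GRCm38.p6) were matched for 6 of the 7 members, in 7 windows, since Gbp3 has a pair of annotated starts. The ISRE core was searched on both strands as GAAA, 2 bases of any kind and GAAA. It was present in 1131 of 32851 mouse windows (3.44%) and in the windows of all 6 members, in 6 of the 7 windows. The stretches around it are printed 5′ to 3′ on the strand of each gene, with every ISRE core in capitals.
Gbp2: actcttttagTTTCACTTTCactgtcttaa
Gbp3: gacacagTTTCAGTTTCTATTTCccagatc
Gbp7: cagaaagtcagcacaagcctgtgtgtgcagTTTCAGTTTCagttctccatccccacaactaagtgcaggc
Irgm1: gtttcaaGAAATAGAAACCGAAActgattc
Irgm2: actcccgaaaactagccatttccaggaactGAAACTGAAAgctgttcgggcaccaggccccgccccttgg
Igtp: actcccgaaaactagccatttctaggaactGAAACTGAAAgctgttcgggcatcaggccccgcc
They lie at chr3:142620594-142620623 for Gbp2, chr3:142559992-142560021 for Gbp3, chr3:142530253-142530322 for Gbp7, chr11:48871428-48871457 for Irgm1 on the minus strand, chr11:58214883-58214952 for Irgm2 and chr11:58199492-58199555 for Igtp. In the 3 GBP genes the core reads in the TTTC orientation, and in the 3 IRG genes in the GAAA orientation.

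**Figure D1:**
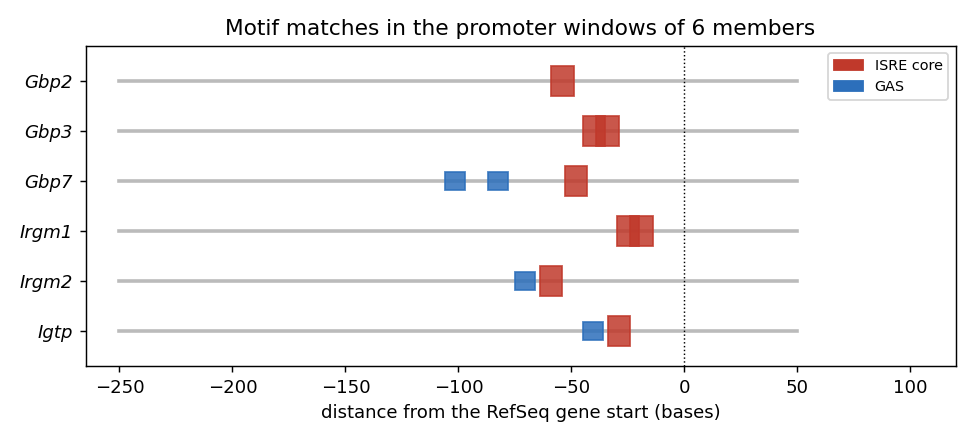
Positions of ISRE core matches (red) and GAS matches (blue) in the promoter windows of 6 members, as distance in bases from the RefSeq gene start, with grey lines for the searched windows. Each gene has its ISRE core in the 64 bases before the start, and Gbp7, Irgm2 and Igtp have GAS matches further upstream.

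The first base of the core lay 59 bases before the RefSeq start in Gbp2, 53 in Gbp7, 64 in Irgm2 and 34 in Igtp. Gbp3 and Irgm1 held a pair of overlapping cores each, at 45 and 39 bases and at 30 and 24 bases. A GAS match, TTC, 3 bases of any kind and GAA on both strands, was found in 8.30% of all windows and in those of 3 members, Gbp7 (at 106 and 87 bases), Irgm2 (75) and Igtp (45), with no overlap with an ISRE core. A kappa-B match, GGG, 2 bases of any kind and TTTCC on both strands, was found in 1.63% of all windows and in no member window. Irgm2 and Igtp had near-copies of the same promoter: 247 of 271 aligned bases (91.1%) were identical, with an unbroken run of 61. In the GENCODE vM21 annotation, the printed stretches of Gbp2 and Irgm1 overlap an exon of their own gene. That of Irgm2 lies within the annotated span of Irgm2, so the starts of these genes differ between annotations. Matches are descriptions of letters and not of bound factors. Of the 10 other family genes with a window, 7 held an ISRE core and 5 a GAS match. Of 26 type I interferon reference genes, used below, 21 had a window, 12 of these with an ISRE core and 5 with a GAS match. The core is thus not particular to this family.

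In the GENCODE vM21 annotation on mm10, Gbp7 (chr3:142530342-142550149), Gbp3 (chr3:142560026-142573209) and Gbp2 (chr3:142620602-142638008) follow each other on the plus strand of chromosome 3. Gbp9 (chr5:105077630-105139539) lies in the chromosome 5 cluster, where it overlaps Gbp8 and Gbp4 on the same strand. Irgm1 (chr11:48861968-48871683) stands apart from Igtp (chr11:58199556-58207591) and Irgm2 (chr11:58199618-58222782), whose annotated spans overlap on the same strand. How the counting treated overlapping genes and strand is not given in the sources used here, so the values of Gbp9, Irgm2 and Igtp are uncertain between these neighbours. In the last 500 transcript bases, where tags of this kind of assay usually fall, Gbp2, Gbp3, Gbp7, Gbp9, Irgm2 and Igtp shared no 50-base stretch with another gene. Irgm1 shared 3.99% of its stretches with Ncbp3.

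The 7 members together were several-fold higher with CYR61. Their summed level was 63.1, 119, 61.7 and 61.8 CPM in control replicates 1 to 4, and 463, 380, 353 and 397 CPM in CYR61 replicates 1 to 4. The highest control library, replicate 2, thus lay far under the lowest CYR61 library. The means were 76.4 ± 28.3 and 398 ± 46.9 CPM (SD, n = 4 each here and below), a ratio of 5.21. The ratio was larger for the sum of the 4 GBP members (34.8 ± 22.3 to 235 ± 55.6 CPM, 6.76) than for that of the 3 IRG members (41.6 ± 13.0 to 163 ± 16.2 CPM, 3.92), a difference that was not tested. In such sums over a library, fewer cells with a gene and less RNA per cell cannot be told apart.

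The barcodes shared between libraries allowed the members to be read under the same barcodes outside their home library. In the control libraries, 2065 kept cells had their home in a CYR61 library, and there they held 370 CPM of the members (95% Poisson interval 352 to 388). The 96 kept cells of control libraries with their home in another control library held 59.8 CPM (25.8 to 118). In the CYR61 libraries, 266 kept cells with a control home held 112 CPM (93.2 to 133), and 1225 with a home in another CYR61 library held 391 CPM (367.5 to 415.5). Cells with a CYR61 home thus read nearly alike in both kinds of library. Cells with a control home read higher in CYR61 than in other control libraries, with overlapping intervals, and no test separated the home library from the library of the counts. Control replicate 2 had 1789 such cells with a CYR61 home, at 375 CPM, and CYR61 replicate 3 had 124 with a control home, at 71.3 CPM. These cells share their barcodes with the home libraries and are not counted as further replicates. Whether a shared barcode is the same cell was not tested. In all kept cells the summed level was 64.3, 312, 108 and 137 CPM in the control and 433, 379, 291 and 394 CPM in the CYR61 libraries, so control replicate 2 lay above CYR61 replicate 3. In barcodes listed in 1 library of their date alone, the means were 60.2 ± 35.7 and 310 ± 22.7 CPM.

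**Figure D2:**
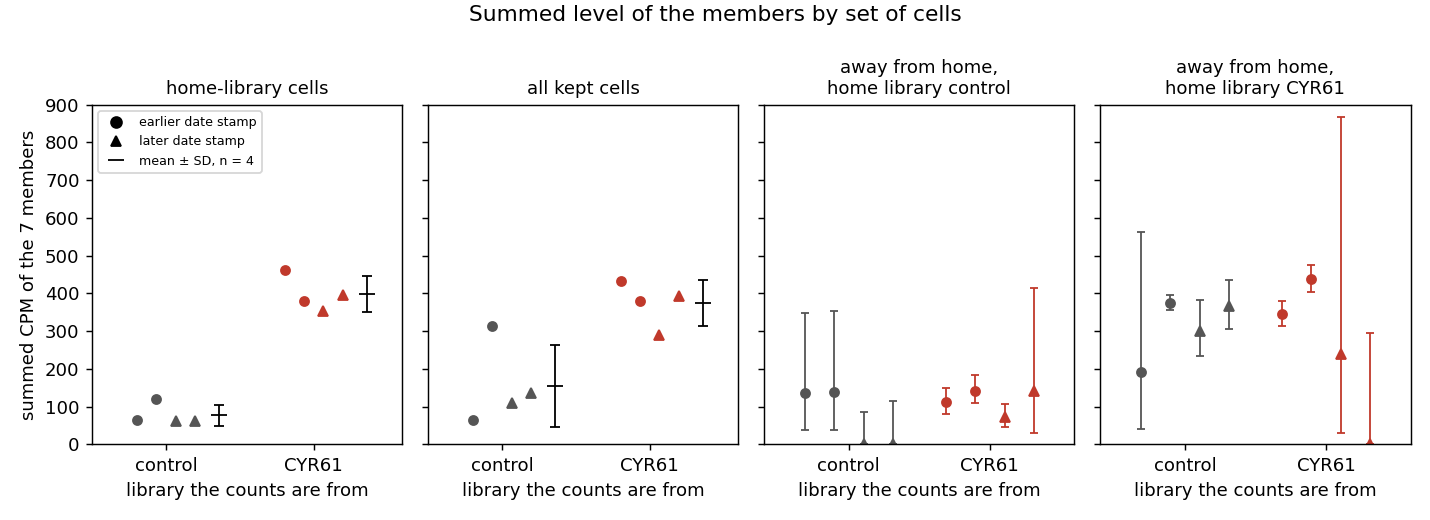
Summed CPM of the 7 members (y axis) by the group of the library the counts came from (x axis), for home-library cells, all kept cells, and kept cells away from a control or a CYR61 home; points are libraries (circles earlier, triangles later date stamp), black bars mean ± SD and thin bars 95% Poisson intervals. Cells with a CYR61 home pool to 370 CPM in control libraries, and control replicate 2 rises to 312 CPM when all kept cells are counted.

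The GBP members are described first. Gbp2, which is anchored to membranes by a prenyl group and takes part in vacuole and bacterial attack, had 14.6, 21.2, 5.94 and 2.99 CPM in control replicates 1 to 4 and 73.9, 51.3, 65.3 and 85.3 CPM in CYR61 replicates 1 to 4. All CYR61 libraries lay above all control libraries. The mean was 11.2 ± 8.30 CPM without and 68.9 ± 14.3 CPM with CYR61, a log2 fold change of 2.59 (SE 0.40, edgeR, as for those below). It rested on 83 control and 1694 CYR61 UMIs.

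Gbp3, a neighbour of Gbp2 in the chromosome 3 cluster, had 5.82, 4.25, 3.56 and 0 CPM in the control libraries and 58.5, 46.9, 54.0 and 61.8 CPM in the CYR61 libraries. Its CYR61 values lay close together, and its control values were low, with 28 UMIs in all, 20 of them in replicate 1. In control replicate 4 the 0 UMIs allow up to 2.99 CPM. The mean went from 3.41 ± 2.46 to 55.3 ± 6.46 CPM, a ratio of 16.2 and a log2 fold change of 3.86 (SE 0.44). This was the largest fold change among the 7 members.

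Gbp7, which has been linked to the assembly of the NADPH oxidase on phagosomes, had 8.44, 19.5, 22.6 and 5.98 CPM in the control and 114, 83.5, 43.5 and 57.5 CPM in the CYR61 libraries. The groups did not overlap, and the pair of CYR61 libraries of the earlier date was higher than that of the later date. The mean was 14.1 ± 8.14 and 74.6 ± 30.9 CPM, a log2 fold change of 2.52 (SE 0.42).

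Gbp9, a gene of the chromosome 5 cluster, was the most uneven member. It had 0.291, 19.5, 2.37 and 1.99 CPM in the control and 61.2, 54.4, 9.57 and 19.5 CPM in the CYR61 libraries. Control replicate 2 lay above CYR61 replicate 3 and level with CYR61 replicate 4, so the groups overlapped. The mean was 6.05 ± 9.03 and 36.2 ± 25.4 CPM, with a log2 fold change of 2.80 and an SE of 0.88. Without control replicate 2 the log2 fold change was 5.13.

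**Figure D3:**
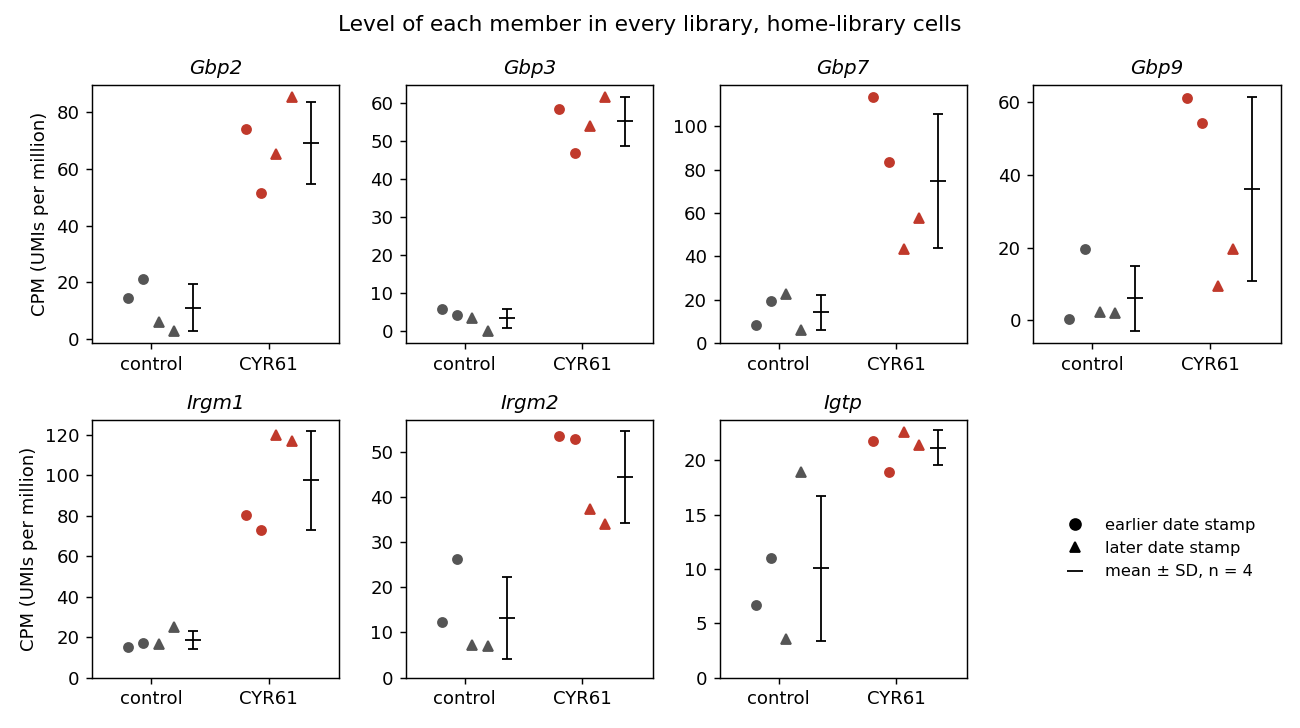
CPM of each member (y axis, separate scales) in every control and CYR61 library of home-library cells, with circles for the earlier and triangles for the later date stamp, and bars for mean ± SD (n = 4). Groups are separate for Gbp2, Gbp3, Gbp7, Irgm1 and Irgm2 and overlap for Gbp9 and Igtp.

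Among the IRG members, Irgm1, a regulator needed for resistance to mycobacteria and for normal autophagy, had 15.1, 17.0, 16.6 and 24.9 CPM in the control and 80.3, 72.8, 120 and 117 CPM in the CYR61 libraries. Its control libraries were the closest together of any member relative to their mean. The mean was 18.4 ± 4.42 and 97.6 ± 24.5 CPM, a log2 fold change of 2.45 with the smallest SE of the 7 (0.27).

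Irgm2, a regulator that also restrains the noncanonical inflammasome, had 12.2, 26.3, 7.12 and 6.98 CPM in the control and 53.5, 52.8, 37.4 and 34.0 CPM in the CYR61 libraries. The groups were separate, with control replicate 2 and CYR61 replicate 4 the nearest. The mean was 13.2 ± 9.11 and 44.4 ± 10.2 CPM, a log2 fold change of 1.80 (SE 0.38).

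Igtp, a regulator found on the endoplasmic reticulum and on lipid droplets, had 6.69, 11.04, 3.56 and 18.9 CPM in the control and 21.7, 18.9, 22.6 and 21.4 CPM in the CYR61 libraries. Control replicate 4, at 18.94 CPM, lay just above CYR61 replicate 2, at 18.88 CPM. The mean was 10.1 ± 6.67 and 21.2 ± 1.61 CPM, and the log2 fold change of 1.12 (SE 0.44) was the smallest of the 7. Irgm2, whose promoter window was nearly identical, had 1.80 (SE 0.38). Whether Igtp and Irgm2 differ in fold change was not tested, and their counts are uncertain because their annotated spans overlap.

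All 7 members passed the filter on low counts. The edgeR quasi-likelihood fit called 5 of the 7 higher, all but Gbp9 and Igtp, where 1.12% of the 10422 genes tested were called higher. The same 5 had groups that did not overlap, where 5.12% of tested genes did not overlap, 2.87% with the higher values under CYR61. The call count was 3 without control replicate 1, 4 to 6 without any other library, and 0 in all kept cells. Irgm2 kept its call in 2 of the 8 fits that left out a library, and Gbp9 gained one without control replicate 2. Since this contrast chose the members, nothing is read from these counts. The median log2 fold change of the members was 2.52, beside -0.02 over all genes tested. The other settings reused these libraries, and the members were chosen as higher, so positive signs there are no support. They gave 167 fold changes of single members, and all 167 were positive. Counting all kept cells lowered the fold changes to between 0.66 (Igtp) and 1.40 (Gbp2).

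The choice of the members did not use the difference of the effect between dates or between Xist and Y libraries, so these were tested. Gbp2 had the largest difference between dates. Its log2 fold change was 1.99 in replicates 1 and 2 and 4.06 in replicates 3 and 4, a difference of 2.14 (SE 0.62) that did not pass in the edgeR interaction test (unadjusted p = 0.00543, adjusted p = 0.396). The later controls were the lowest in Gbp2, at 5.94 and 2.99 CPM. Gbp3 went from 3.41 to 5.04 (adjusted p = 0.580), and Gbp7 the other way, from 3.11 to 1.83 (adjusted p = 0.605). The remaining 4 members differed by at most 0.67 between dates (adjusted p from 0.723 to 0.973). Over all genes 0 of 10422 passed this edgeR test, 1055 had an unadjusted p under 0.05, and DESeq2 called 33. Without control replicate 4, edgeR called 278.

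Between Xist and Y libraries the effect was close in Gbp3 (3.84 and 3.87) and Irgm2 (1.69 and 1.83). The SE of the difference was 0.89 for Gbp3 and 0.61 for Irgm2, too wide to show that the libraries responded alike. Gbp9 differed most, with log2 fold changes of 2.37 and 4.21 (difference 2.08, SE 1.19, edgeR interaction adjusted p = 0.561). Igtp was the sole member with the larger value in the Xist libraries (1.49 against 0.91, adjusted p = 0.870). No member passed this test, which called 5 of 10422 genes (0.048%). In the CYR61 libraries the earlier date and the Xist libraries are the same pair, so date and split cannot be told apart there.

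The members were next counted cell by cell. The share of cells with a UMI depends on depth, so every cell was thinned to the same number of UMIs and shallower cells were left out. At 500 UMIs, 2.01%, 4.65%, 1.77% and 1.36% of cells in control replicates 1 to 4 had a UMI of any member, and 15.1%, 14.7%, 15.0% and 13.2% in CYR61 replicates 1 to 4. The CYR61 libraries were nearly level, and all lay above the highest control. The means were 2.45% ± 1.495 and 14.5% ± 0.908, over 1949 control and 6899 CYR61 cells, with 108 and 240 shallower cells left out. Without thinning they were 11.9% ± 4.15 and 39.3% ± 8.50.

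Shares were higher in deeper cells. Among the 1540 CYR61 cells with at least 5000 UMIs, thinned to that depth, 82.1%, 78.6%, 88.6% and 78.6% had a UMI of any member in replicates 1 to 4. Among the 264 such control cells the shares were 25.4%, 34.0%, 29.0% and 31.3%. A UMI was thus seen in most deep CYR61 cells and in a minority of deep control cells, and a cell without one may still express the members at a low level. Barcodes with under 100 UMIs carried the members at 204 CPM in the CYR61 and 56.9 CPM in the control tables, and the part of free RNA in these shares was not tested. This depth left out 1793 control and 5599 CYR61 cells, and deep cells may differ from the rest. A GBP member was seen in 60.1% ± 4.61 of the deep CYR61 cells and an IRG member in 54.1% ± 4.32, against 15.3% ± 7.59 and 18.4% ± 6.07 of deep control cells.

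**Figure D4:**
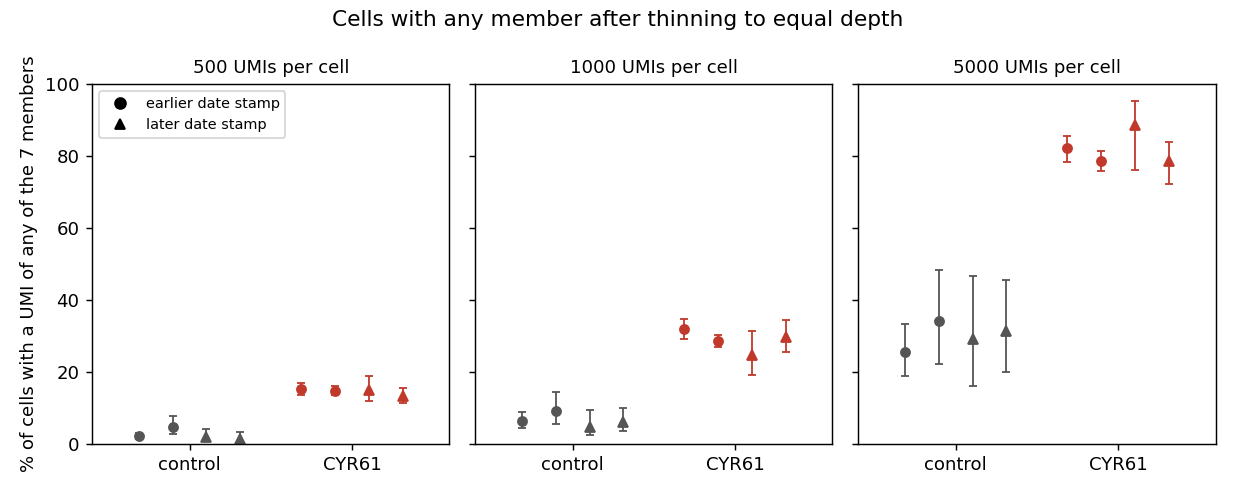
Percent of home-library cells with a UMI of any of the 7 members (y axis) in each control and CYR61 library after thinning every cell to 500, 1000 or 5000 UMIs; points are libraries (circles earlier, triangles later date stamp) and bars are 95% Wilson intervals. The share rises with depth in both groups, to 78.6% to 88.6% of CYR61 cells and 25.4% to 34.0% of control cells.

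By member, Irgm1 had the highest share in deep CYR61 cells, 36.7% ± 4.92, against 10.97% ± 6.28 of deep control cells. Gbp7 followed with 26.6% ± 7.05 against 8.37% ± 5.17, Gbp2 with 25.3% ± 4.82 against 5.72% ± 2.53 and Gbp3 with 22.5% ± 2.39 against 2.60% ± 1.82. Irgm2 was seen in 19.6% ± 3.55 against 6.75% ± 5.28, Gbp9 in 15.8% ± 9.35 against 1.78% ± 3.09 and Igtp in 8.54% ± 0.818 against 2.11% ± 2.95. No single member was thus seen in a majority of deep CYR61 cells. A member with no UMI at this depth may still be expressed in the cell. At least 2 members were seen in 46.4% ± 4.74 of them and at least 3 in 18.4% ± 6.14.

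The number of members per deep cell varied more than independent members would in all control libraries and in 3 of the 4 CYR61 libraries. In control replicates 1 to 4 the variance was 0.414, 0.515, 0.370 and 0.410, against 0.312, 0.424, 0.316 and 0.330 computed from the single shares. In CYR61 replicates 1, 2 and 4 the mean was 1.75, 1.54 and 1.47 members, and the variance of 1.71, 1.57 and 1.33 exceeded the 1.27, 1.16 and 1.07 computed from the single shares. CYR61 replicate 3, with 44 deep cells, went the other way, at 0.812 against 1.07. A cell of CYR61 replicate 1 held all 7 members. The variance of member UMIs over their mean, 1 for pure counting, was 0.960 to 1.13 in the CYR61 libraries at 500 UMIs. At 5000 UMIs it was 2.11, 2.53, 0.951 and 1.86 in CYR61 replicates 1 to 4. In control replicates 1 to 4 it was 1.425, 1.714, 1.322 and 1.742. An excess over counting was thus seen at that depth in both groups, in all libraries but CYR61 replicate 3.

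Pairs of members were found together somewhat more often than expected within bins of depth. In home-library cells of the CYR61 libraries, split into 10 bins of depth within each library, all 21 pairs were seen together in more cells than expected, by 1.05 to 1.21 times (median 1.14). For 17 of the 21 pairs the odds ratio was over 1 in all 4 libraries. Gbp2 and Gbp7 were seen together in 413 cells where 343 were expected, and Gbp3 and Gbp7 in 402 where 336 were expected. A GBP and an IRG member were seen together in 1198 cells where 1165 were expected, with odds ratios from 0.764 to 1.32 over the libraries. Depth still varied within a bin, which can raise the count of every pair, and its part in the excess was not tested. Cells of a library are not replicates, so these counts carry no test.

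The share of CYR61 cells with a member was also set beside 26 type I interferon reference genes in the same cell. At 500 UMIs, CYR61 cells with 0 UMIs of the reference genes had a member in 10.7% ± 3.69, those with 1 UMI in 15.3% ± 3.55, those with 2 to 3 in 15.1% ± 0.672 and those with at least 4 in 17.2% ± 4.83. The lowest share was in the cells with 0 in replicates 1, 2 and 4, but in those with at least 4 in replicate 3 (11.5%, against 12.2% with 0). The ranges of neighbouring bins over the 4 libraries overlapped, and no difference between bins was tested. In control libraries the cells with 0 reference UMIs had a member in 2.37% ± 1.76, so even the CYR61 cells without a reference UMI lay above them.

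Cells with neutrophil markers were set beside the rest because neutrophil RNA varied between libraries, and the result turned with the rule that picked them. With at least 3 of 6 markers detected, 61.5% of 299 CYR61 cells and 41.6% of 197 control cells had a member UMI, against 43.0% and 8.12% of the others. These cells were far deeper (medians of 3658 and 8408 UMIs, against 1228 and 912.5), and held the members at 440 and 87.4 CPM, against 402 and 61.3 CPM. A rule on the share of UMIs was therefore added after the data were seen. In CYR61 libraries, 28 of 101 cells with at least 1% of UMIs from 6 neutrophil markers had a member UMI (27.7%, 95% Wilson interval 19.9% to 37.2%, median 1292 UMIs). The other 7038 cells had one in 44.0% (42.8% to 45.1%, median 1277.5 UMIs). In control libraries it was 0 of 26 neutrophil-marker cells, which allows a share of up to 11.5%, and 11.5% of 2031 other cells. Pooled over the libraries of a group, the members were thus higher with neutrophil markers under one rule and lower under the other. The pooled cells are not replicates, and neither difference was tested. Neutrophils can express these genes, so they are no cell type that lacks them. Without the cells picked by the added rule the summed members were 77.4 ± 29.0 and 403 ± 42.0 CPM.

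Across CYR61 cells, the genes whose level per cell was most like the mean of the members were, in order, Ifit2, Ifi209, Maf, Slfn5, Isg15, Mndal, Znfx1, Samhd1, Ifi207 and Itga4. Likeness was the Pearson correlation of log counts across the cells of a library, averaged over the 4 CYR61 libraries, among 5109 genes seen in at least 5% of cells of each. It ran from 0.249 for Ifit2 to 0.206 for Itga4, and the next gene had 0.205. The median over all candidates was 0.107. Such values are weak, the cells share library and depth, and they describe the data only.

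Other genes of the family, from a list of 20 of which 19 were in the tables, mostly had higher means with CYR61 as well. The list was chosen with earlier results of these data known. Of the 9 that passed the count filter, 6 rose, 0 fell and 3 did not pass in the edgeR fit. Most of these passed the filter through their CYR61 libraries, so the count is no support for the members. Over all genes tested, 1.12% rose. Ifi47, an effector-type IRG, had 5.82, 11.04, 8.31 and 13.96 CPM in the control and 74.2, 62.1, 112 and 84.5 CPM in the CYR61 libraries. The groups were far apart, with a log2 fold change of 3.18 (SE 0.33, adjusted p = 0.00025).

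The other tested GBPs were near silence without CYR61. Gbp5, which promotes inflammasome assembly, had 0.582, 0, 3.56 and 0 CPM in the control and 11.6, 8.61, 13.9 and 14.4 CPM in the CYR61 libraries (log2 fold change 3.84, SE 0.82, adjusted p = 0.0444). Its call was lost in 7 of the 8 fits that left out a library (adjusted p from 0.0517 to 0.245) and was kept without control replicate 3 (adjusted p = 0.00695). With the replicate number as a block its adjusted p was 0.0707. Gbp6 had 1 control UMI and 14.5 ± 6.06 CPM with CYR61, a pooled ratio of 70.8 (counting interval 12.6 to 2806, adjusted p = 0.00143).

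Among the other IRGs, Iigp1 (Irga6), the best studied effector on parasite vacuoles, had 2 control UMIs and 11.1 ± 3.01 CPM with CYR61. Its pooled ratio was 35.9 (9.85 to 298, adjusted p = 0.00359). It was not tested without CYR61 replicate 1 or 2, since it then missed the count filter. Gm4951 had 3 control UMIs and 12.8 ± 3.64 CPM, a pooled ratio of 29.7 (10.1 to 145, adjusted p = 0.00267). Gm12250 (Irgb10), which acts on bacterial membranes, went from 1.30 ± 1.05 to 17.4 ± 5.22 CPM (log2 fold change 3.71, SE 0.59, adjusted p = 0.00561).

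The 3 genes that did not pass were higher in mean too. Gm5431 had 7.82 ± 7.97 and 24.2 ± 3.25 CPM (adjusted p = 0.526), 9930111J21Rik2 had 22.6 ± 9.69 and 50.1 ± 6.78 CPM (adjusted p = 0.111), and 9930111J21Rik1 had 5.72 ± 1.90 and 7.38 ± 4.38 CPM (adjusted p = 0.9999). Of the 10 that missed the count filter, Gbp4 and Tgtp2 had 0 control UMIs and 51 and 54 with CYR61. Set against 3 counts per group, the floor used, Gbp4 was at least 4.11-fold and Tgtp2 at least 4.35-fold higher. Gbp8 had 1 and 112 UMIs, a pooled ratio of 27.1 (4.76 to 1078), and F830016B08Rik 3 and 112, a ratio of 9.02 (3.01 to 44.4). Gbp2b, Gbp10, Gbp11, Tgtp1 and Irgc1 had at most 8 UMIs in either group. Gm12185 was the exception in direction, with 3.58 ± 2.54 CPM without and 1.28 ± 0.3601 CPM with CYR61, and its groups overlapped.

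**Figure D5:**
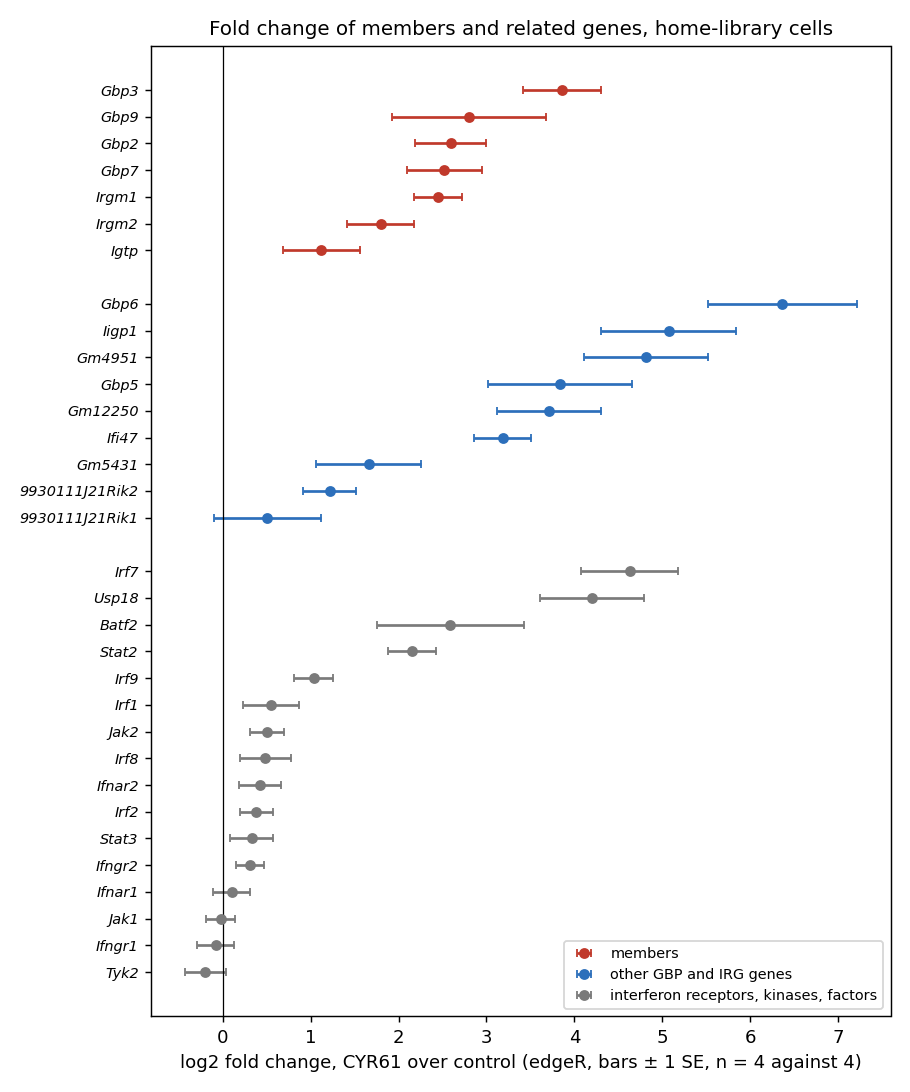
Log2 fold change of CYR61 over control (edgeR, bars ± 1 SE, n = 4 against 4) for the members (red), the other tested GBP and IRG genes (blue), and the interferon receptors, kinases and transcription factors reported here (grey). Members lie between 1.12 and 3.86; the fitted values of Gbp6, Iigp1 and Gm4951 rest on 1 to 3 control UMIs and depend on the prior count of the fit.

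Regulators of these genes are given next. Of 19 interferon receptors, kinases and transcription factors, 17 were tested. In the edgeR fit 5 rose, 0 fell and 12 did not pass, with a median log2 fold change of 0.48. Over all genes tested, 1.12% rose, and no difference between regulators was tested. Stat2 rose by 2.15 on the log2 scale (adjusted p = 0.00103) and Irf9 by 1.03 on that scale (adjusted p = 0.041), which encode parts of the factor that binds ISRE. Irf7, an amplifier of type I interferon, rose from 18.3 ± 8.75 to 456 ± 317 CPM (adjusted p = 0.000533), and Usp18, a brake on the type I receptor, by 4.20 on the log2 scale (adjusted p = 0.00216). Irf1, a factor that drives many GBP genes after interferon gamma, had 50.3 ± 21.9 and 73.5 ± 20.6 CPM and did not pass (adjusted p = 0.915). Ifngr1, a receptor chain for interferon gamma, had a log2 fold change of -0.08 (adjusted p = 0.9999). Ifnar1, a type I receptor chain, had 0.10, and the kinases Tyk2 and Jak1 had -0.20 and -0.02 (adjusted p = 0.9999 each). The other chains of these receptors, Ifngr2 and Ifnar2, had 0.31 and 0.42 and did not pass (edgeR adjusted p = 0.866 and 0.91). The factor Batf2 had 2.59 (adjusted p = 0.389) and the kinase Jak2 0.50 (adjusted p = 0.636), and neither passed in the edgeR fit. The part of either interferon type was not tested.

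Other interferon lists are given beside the members. Of 18 genes classically induced by interferon gamma, 11 were tested, 1 rose and 10 did not pass, with a median log2 fold change of 0.92. Over all genes tested, 1.12% rose. All 11 had a positive log2 fold change, and 4 had groups that did not overlap, where 5.12% of all tested genes did not overlap. Ciita, Cxcl9, Cxcl10, Nos2, Ido1, Serpina3g and Upp1 missed the count filter and were not tested. The gene that rose was Tap1, the peptide transporter of MHC class I loading, from 39.0 ± 11.3 to 106 ± 33.6 CPM (adjusted p = 0.0197). All 26 type I interferon reference genes rose, with a median of 3.36, but this list was chosen with that result known. Of 7 other interferon-inducible large GTPases, 4 were in the tables and 3 were tested, and these 3 rose in the edgeR fit. Mx1 rose from 2.08 ± 1.58 to 126 ± 67.8 CPM (adjusted p = 0.000177) and Mx2 by 4.49 on the log2 scale (adjusted p = 0.00267). Rnf213 went from 71.8 ± 26.0 to 297 ± 34.1 CPM (adjusted p = 0.000349).

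Genes through which GBPs and IRGs act are given last. Of 10 inflammasome genes downstream of GBPs, 1 rose, 0 fell and 9 did not pass, with a median log2 fold change of 0.45. The one that rose was Il1b, with 2 control UMIs and a pooled ratio of 37.3 (10.3 to 310, edgeR adjusted p = 0.0161). With so few control UMIs it passed the count filter through its CYR61 libraries, so nothing is read from its call. Casp4 (caspase-11), the sensor of cytosolic lipopolysaccharide, had 33.2 ± 14.1 and 61.5 ± 6.23 CPM and did not pass (adjusted p = 0.254). None of 14 autophagy conjugation genes linked to IRGs passed (median 0.08), and none of 5 tested prenylation enzymes, which attach the lipid anchor of some GBPs (median 0.13). Since 1.16% of all tested genes were called in either direction, no calls in lists of this size is near the background.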

How the data were processed

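Single-cell RNA of 4 control and 4 CYR61 HIVE libraries was analysed. The authors deposited whole-number UMI counts per gene and barcode, with 5000 barcodes of 12 bases per table. The genome build was mm10, per the submitters' processing notes. For the aligner, counter, annotation and cell calling: not given in the sources used here. Groups and replicate numbers came from the labels, and the date stamps from the table names.

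Kept cells had at least 300 genes and at most 20% mitochondrial UMIs, and doublets were not called. Home-library cells were as defined in the report. Counts were summed per library, and the total UMIs of a library ranged from 1379637 to 16318946. Tests used edgeR 4.0.16 in R 4.3.3 (TMM factors, filterByExpr, quasi-likelihood test, all 8 libraries, group as the sole term, Benjamini-Hochberg adjusted p under 0.05 over all genes tested), with DESeq2 1.42.0 as an alternative. Interactions of group with date and with the Xist and Y split were separate fits. The script was tested on simulated data. Thinning, Wilson and Poisson intervals and odds ratios used Python 3.11.15 with scipy 1.17.1. Mantel-Haenszel odds ratios were stratified by 10 bins of depth. Intervals, limits and floors (3 counts) cover counting error alone. Ratios of genes with 1 to 3 control UMIs divide summed counts by summed UMIs.

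The members and lists were chosen with earlier results of these data known. Named were the members, every tested gene of the 2 lists of other family genes, up to 4 called genes per direction with the smallest p in the other lists (none is singled out from the type I interferon reference list, and 1 called regulator is not reported here), and the 10 non-members most like the members. Family genes and interferon gamma genes that missed the count filter, Gm12185 and Casp4 were named after their values were seen. So were the regulators Irf1, Ifngr1, Ifngr2, Ifnar1, Ifnar2, Tyk2, Jak1, Batf2 and Jak2. Replicate numbers were not treated as pairs, since the deviations of same-numbered libraries did not all correlate. Alternatives covered normalization, the gene filter, cell filters, sets of cells, depth, blocks and left-out libraries.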

Additional observations from a re-analysis of the deposited data

Results flagged for a closer look

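In groups of 4 libraries, 5 of 44 had 1 library far from the others by Dixon's criterion, where chance gives about 1 in 20. Gbp9 was 19.5 CPM in control replicate 2 and 0.291 to 2.37 CPM in the other controls. It was 23.0 CPM, from 6 UMIs, in the barcodes of that library listed in no other library of the date. The summed members were 119 CPM in control replicate 2 and 61.7 to 63.1 CPM in the other controls, and 111 CPM in its barcodes listed in no other library of the date. Gbp5 stood at 3.56 CPM in control replicate 3, with 0 to 0.582 CPM in the other controls. Gbp6 was 0.291 CPM, or 1 UMI, in control replicate 1 and 0 in the other controls. The gene 9930111J21Rik1 was 0.870 CPM in CYR61 replicate 3 and 8.85 to 10.2 CPM in the other CYR61 libraries.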

How the results depend on the processing

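The median log2 fold change of the members stayed between 2.26 and 2.77 in all settings but all kept cells, where it was 1.19 (2.26 to 2.75 with 1 library left out). Over single members 158 of 167 values moved by less than the replicate SD, and none reversed.

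Of all genes, 121 were called. The count was 216 with DESeq2 (179 higher, 37 lower), 239 without a gene filter (208 and 31), 231 with the Xist split as a block (199 and 32), 371 in Xist libraries alone (132 and 239) and 196 in Y libraries alone (174 and 22). It was 0 in all kept cells, with 185 higher and 94 lower at an unadjusted p under 0.05 in edgeR, and 74 to 127 with 1 library left out. The lowest, 74, was without CYR61 replicate 4. Fewer other family genes than the main 6 were called in all kept cells (0), in barcodes listed once (1 of 3 tested), at the earlier date (3 of 12), at the later date (1 of 6) and in Xist libraries alone (3 of 11), and 4 to 6 with 1 library left out. Genes whose effect differed between dates numbered 33 with DESeq2, 180 without a gene filter and 0 to 278 with 1 library left out, with the 278 without control replicate 4. Between Xist and Y libraries they numbered 24 with DESeq2, 87 without a filter, 0 in all kept cells and 0 to 9 with 1 library left out. The cause of these changes was not tested.

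The CYR61 share of cells with a member was 28.7% at 1000 UMIs, 82.0% at 5000 (a depth added after the data were seen), 39.3% unthinned, 13.5% in all kept cells and 13.2% in barcodes listed once, and 14.3% to 15.0% with 1 library left out. The control share was 6.46% at 1000 UMIs, 29.9% at 5000, 11.9% unthinned and 6.84% in all kept cells, and 1.71% to 2.81% with 1 library left out. Same-numbered libraries correlated in their deviations at -0.198, 0.324, -0.0874 and 0.314, and 2 of the 4 numbers matched best. With the replicate block, 112 genes were called (106 higher, 6 lower), 5 of them other family genes, and the member median was 2.56.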

Other observations

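Barcodes with under 100 UMIs carried the members at 56.9 CPM in the control tables (95% Poisson interval 31.1 to 95.5, from 14 UMIs) and at 204 CPM in the CYR61 tables (129.5 to 306.5, from 23 UMIs). All of the latter came from CYR61 replicate 3 (17 UMIs) and replicate 4 (6 UMIs), since CYR61 replicates 1 and 2 listed few such barcodes. The most member UMIs in a deep cell after thinning to 5000 UMIs were 15, 34, 7 and 10 in CYR61 replicates 1 to 4 and 3 to 5 in the control libraries.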
